A study of Mus musculus with 12 samples.

Results

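Sema3a and Sema3c encode secreted class 3 semaphorins and are 2 of the 8267 genes that could be named on the arrays of this study. They were taken by symbol, with values of these arrays already known, because both were lower after 4 h of BMP6, and each is read by 1 probe. RNA came from MECs, an endothelial cell line grown from tissue inside the mouse embryo, either mock-treated (control) or given BMP6, a ligand of the TGF-beta superfamily, for 4, 12 or 24 h. Each of the 4 groups held 3 arrays, described by the submitters as independent biological replicates. The labels give neither the dose of BMP6 nor the time at which control cells were taken, and all groups are this 1 line. Each array compared the cells' RNA, labelled with Cy5, with a universal mouse RNA pool labelled with Cy3, called the reference below.

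Class 3 semaphorins are guidance cues that cells secrete and that act on neighbouring cells through a receptor made of a neuropilin, which binds the ligand, and a plexin, which carries the signal inward. They were first known for repelling growing axons. In blood vessels, Sema3a acts through Nrp1 and plexins of the A class and restrains endothelial migration, while Sema3c binds Nrp1 and Nrp2, can signal through Plxnd1 and is needed to form the outflow tract of the heart.

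Values are deposited log ratios of the 2 channels, read here as log2 ratios of the cells to the reference. The sources used here state no base and no sign: with the sign turned, every lower value below would be a higher one, and with natural logarithms every fold would be larger. Gene names rest on an order of array positions inferred from the data, under which the first 2 probes of a gene correlated across 1831 genes (Pearson r = 0.471, against 0.021 in the deposited order; genes are not independent replicates). With 1 probe each, neither semaphorin had a second probe to set beside it. Array medians lay between -0.04 and 0.002, and no spot intensities were used, so whether a probe was detected is not known here.

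The promoter windows of the genes are shown because both genes were lower after a signal that acts through SMAD transcription factors. They are the 250 bases before a RefSeq start on the plus strand of chromosome 5 (GRCm38.p6), chr5:13396534-13396783 for Sema3a and chr5:17574566-17574815 for Sema3c. Capitals mark matches to the SMAD-binding letters GTCT (or AGAC on the other strand) and to GGCGCC, letters of a GC-rich element that BMP-activated SMADs can bind.
Sema3a: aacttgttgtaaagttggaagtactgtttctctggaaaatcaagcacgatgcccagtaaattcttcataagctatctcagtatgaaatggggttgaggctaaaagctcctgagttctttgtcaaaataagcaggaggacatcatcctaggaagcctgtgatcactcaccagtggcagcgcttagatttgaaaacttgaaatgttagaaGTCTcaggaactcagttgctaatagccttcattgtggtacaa
Sema3c: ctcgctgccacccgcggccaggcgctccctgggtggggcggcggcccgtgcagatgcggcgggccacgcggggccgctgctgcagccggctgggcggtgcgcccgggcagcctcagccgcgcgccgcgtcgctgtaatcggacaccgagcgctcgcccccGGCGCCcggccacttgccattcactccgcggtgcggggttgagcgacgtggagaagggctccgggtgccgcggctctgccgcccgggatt
The Sema3a window belongs to a start inside the gene and not to the outermost start that RefSeq lists.

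These windows were unlike each other. The Sema3c window had a GC content of 78.4% and 39 CG pairs, and 98.1% of 32851 RefSeq promoter windows had a lower GC content. That of Sema3a had a GC content of 40.8% and 2 CG pairs, against a median of 52.4% and 6 pairs, and 13.3% of windows had a lower GC content. GTCT occurred once for Sema3a, starting at -42 from the start that bounds its window, and not for Sema3c, and 82.9% of all windows hold it. GGCGCC occurred once for Sema3c, starting at -90 from its own, and not for Sema3a, and 9.59% of all windows hold it. The GC box GGGCGG occurred 3 times for Sema3c and 0 times for Sema3a (32.7% of windows), and the E-box CANNTG 2 times for Sema3c and 1 time for Sema3a (66.2%). The TATA box TATAAA (12.4%) and the cAMP-response letters TGACG (17.8%) occurred in neither. Both strands were searched, and no match overlapped one of another motif. A match describes letters and not a bound site.

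Sema3a was lowest after 4 h of BMP6 and lay nearer to control at 12 and 24 h. Its log2 ratios to the reference RNA were 1.24, 1.06 and 1.21 in the control arrays numbered 1 to 3, then 0.77, -0.11 and 0.11 at 4 h, 1.04, 0.45 and 0.74 at 12 h, and 1.11, 0.78 and 0.87 at 24 h. The 4 h arrays did not overlap the controls, the 12 h arrays lay just below them, and the 24 h arrays overlapped them. The array of replicate number 1 was the highest at every time, and at 4 h it stood well above the other two.

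In means, Sema3a stood at 0.26 ± 0.46 after 4 h of BMP6, against 1.17 ± 0.10 in controls (SD, n = 3 each), a log2 difference of -0.91 with an SE of 0.21. This is 53.2% of the control ratio, or 1.88-fold lower. At 12 h the mean of 0.74 ± 0.30 was 74.4% of the control ratio (log2 difference -0.43, SE 0.21). At 24 h the mean of 0.92 ± 0.17 was 84.3% of it (-0.25, SE 0.21). The SEs come from a fit without pairing. With the replicate number as a block, the SE was 0.112 at each time. No p is given for these differences, since the genes were chosen on the comparison at 4 h and the comparisons share the same 3 control arrays.

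Set against the control array of the same replicate number, Sema3a was lower in 3 of 3 pairs at each time. The differences were -0.47, -1.17 and -1.09 at 4 h, -0.20, -0.61 and -0.46 at 12 h, and -0.13, -0.28 and -0.34 at 24 h. Pair 1 showed the smallest difference each time. Without the 12 h array of replicate 2 the 12 h difference was -0.28, the only omission of an array of the groups compared that moved a 4 h or 12 h difference of either gene by over 1.5 times.

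Sema3c was lower by a similar amount at all 3 times. Its log2 ratios were 0.82, 1.07 and 0.77 in controls, then 0.17, 0.33 and 0.31 at 4 h, 0.14, 0.22 and 0.36 at 12 h, and 0.32, 0.44 and 0.26 at 24 h. Every one of the 9 BMP6 arrays lay below the lowest control array, which held for 43 of the 8267 genes (0.52%). These arrays include the 4 h and control arrays that chose Sema3c, so nothing is read from that share.

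The mean of Sema3c was 0.27 ± 0.08 at 4 h, against 0.89 ± 0.16 in controls (SD, n = 3 each), a log2 difference of -0.62 with an SE of 0.09, or 65.2% of the control ratio. At 12 h it was 0.24 ± 0.11, or 64.0% of the control ratio (log2 difference -0.64, SE 0.09), and at 24 h 0.34 ± 0.09, or 68.6% (-0.54, SE 0.09). With the replicate number as a block, the SE was 0.074 at each time. The paired differences were -0.65, -0.74 and -0.46 at 4 h, -0.68, -0.85 and -0.40 at 12 h, and -0.50, -0.63 and -0.50 at 24 h. All 9 pointed down.

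**Figure D1:**
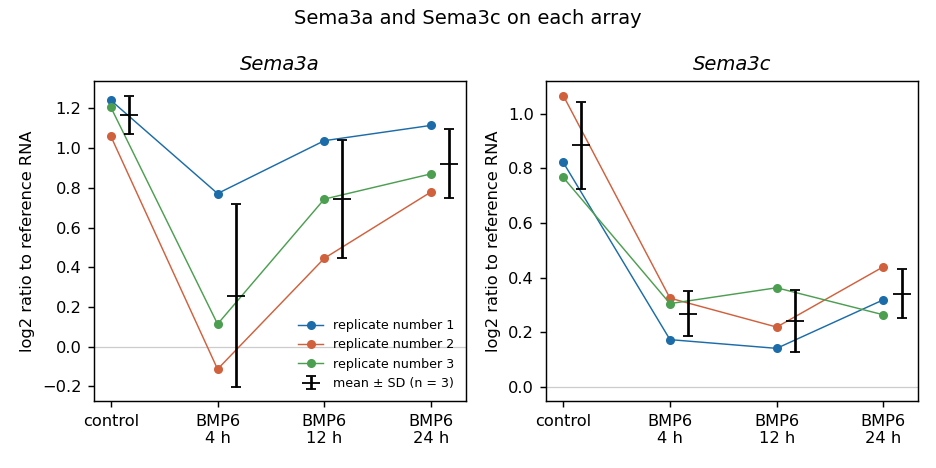
Log2 ratio to the reference RNA (y axis) of Sema3a (left) and Sema3c (right) on each of the 12 arrays, by group (x axis: control, then BMP6 for 4, 12 and 24 h). Coloured lines join arrays of the same replicate number and black bars are the mean ± SD (n = 3). Sema3a has its lowest mean, 0.26, at 4 h and a mean of 0.92 at 24 h, while the means of Sema3c lie between 0.24 and 0.34 at all BMP6 times.

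Both genes lay below control without overlap at 4 h, where 6.33% of all genes did so, and this comparison chose them. At 12 h both again lay below control without overlap, against 4.14% of all genes, and at 24 h Sema3c alone did, against 2.47%. These shares describe the genes and rest on the same control arrays. Counted from the most lowered of 8267 genes, Sema3a ranked 3 at 4 h, 52 at 12 h and 134 at 24 h, and Sema3c ranked 16, 11 and 11. The median difference of all genes was -0.006 at 4 h, -0.002 at 12 h and -0.005 at 24 h.

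**Figure D2:**
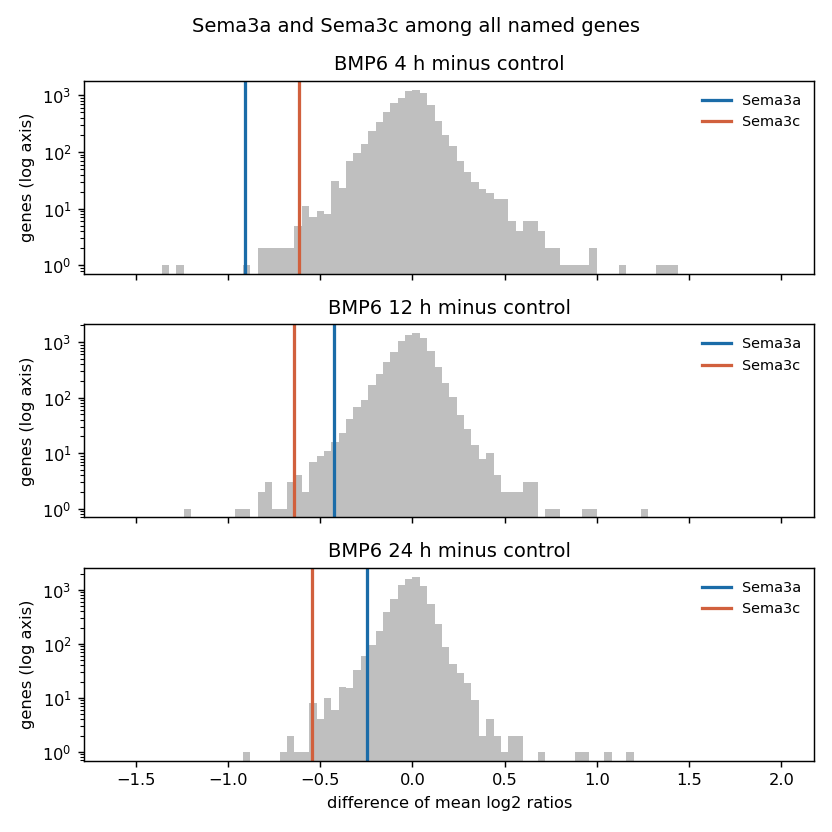
Number of the 8267 named genes (y axis, log scale) by the difference of mean log2 ratios between BMP6 and control (x axis), at 4 h (top), 12 h (middle) and 24 h (bottom). Coloured lines mark Sema3a at -0.91, -0.43 and -0.25 and Sema3c at -0.62, -0.64 and -0.54.

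The comparison of 24 h with 12 h takes its means from neither the control nor the 4 h arrays. It was tested over all 8267 genes with limma. The fit estimated the spread from all 12 arrays, so the intervals and p-values do draw on the control and 4 h arrays. With only the 2 groups compared, the SE was 0.159 for Sema3a and 0.085 for Sema3c, against 0.206 and 0.094 with all arrays. Sema3a stood at 0.92 at 24 h and 0.74 at 12 h, a log2 difference of 0.18 (95% interval -0.272 to 0.631, adjusted p 1, n = 3 each). With the replicate number as a block, the fit called paired below, the interval was -0.07 to 0.429 (adjusted p 0.73), and 3 of 3 pairs were higher at 24 h. Sema3c stood at 0.34 at 24 h and 0.24 at 12 h, a difference of 0.10 (95% interval -0.105 to 0.305, adjusted p 1; paired -0.065 to 0.265, adjusted p 0.801), with 2 of 3 pairs higher. Neither passed in either fit. The Sema3a difference became 0.33 when the 12 h array numbered 1 was left out, 0.03 when that numbered 2 was, and 0.08 when the 24 h array numbered 1 was. The Sema3c difference became 0.05 when the 12 h array numbered 1 or the 24 h array numbered 2 was left out, and 0.16 when the 12 h array numbered 3 was. The unpaired intervals leave room for changes of up to 0.63 for Sema3a and 0.31 for Sema3c.

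At this contrast 0 of 8267 genes passed in the unpaired fit (152 at an unadjusted p under 0.05) and 9 in the paired fit, 0.109%. Between 4 and 24 h, a comparison that uses the arrays on which the genes were chosen, Sema3a was higher at 24 h by 0.66 (SE 0.21) without overlap, where 12.0% of all genes did not overlap in 1 direction or the other. For Sema3c the same difference was 0.07 (SE 0.09) with overlapping arrays. Of all genes, 1.29% passed the paired test at 12 h against 4 h and 4.05% at 24 h against 4 h.

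In order of mean level, Sema3a ran from 4 h through 12 h and 24 h to control, and each neighbouring pair of groups in that order overlapped. Sema3c ran from 12 h through 4 h and 24 h to control. Its 3 BMP6 groups overlapped one another, and none of them overlapped control. The groups include the control and 4 h arrays on which the genes were chosen, so the next shares are a description. Treatment groups held 66.4% of the sum of squares of Sema3a and 88.7% of that of Sema3c, against 23.4% over all genes. Replicate numbers held 25.1% and 4.79%, against 55.0% over all genes.

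The labelled cell type was checked on markers. In controls 0 of 5 measured endothelial markers lay above 0, with Pecam1 at -1.42 ± 0.24 and Cdh5 at -1.62 ± 0.08 (SD, n = 3), while 4 of 6 fibroblast and mesenchymal markers did. A ratio below 0 says that the mixed reference RNA held more of a transcript and not that the cells lacked it. The mean of the fibroblast list ran from -0.269 to 0.26 over the 4 h arrays, -0.145 to 0.238 at 12 h and 0.012 to 0.37 at 24 h, against 0.048 to 0.46 in controls. In the paired fit 3 of these 6 fell at 4 h, where 6.02% of all genes passed in either direction. These 3 were Prrx1 by a log2 difference of -0.49 (paired adjusted p 0.00754), Cdh11 by -0.45 (0.0251) and Col3a1 by -0.24 (0.0363), named after their values were seen. Unpaired, 0 of the 6 passed at 4 h (0.169% of all genes), with 2 at an unadjusted p under 0.05 (7.43%). Prrx1 also fell at 12 h, by -0.495 (paired adjusted p 0.0173), where 1.89% of all genes passed. That 12 h call was lost without control or 12 h arrays numbered 1 or 2, at up to 0.109. The Prrx1 call at 4 h held without each array in turn. That of Cdh11 was lost when control or 4 h arrays numbered 2 or 3 were left out, at up to 0.0851, and that of Col3a1 with each array but control replicate 1 and 24 h replicates 2 and 3, at up to 0.124.

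The mean of the 5 endothelial markers lay below control without overlap at 24 h, from -1.34 to -1.086, against -1.064 to -1.008 in controls. It ran from -1.121 to -1.003 at 4 h and -1.251 to -1.057 at 12 h, which overlapped the controls. The mean of 3 blood cell markers also lay below control at 24 h, from -0.75 to -0.622, against -0.587 to -0.44 in controls, and overlapped it at 4 and 12 h. Taken singly, 2.47% of all genes lay below control without overlap at 24 h, a share of genes and not of list means. At 24 h 0 of these 5 endothelial and 0 of these 3 blood cell markers passed in either fit. The shares of all genes there were 0% unpaired and 0.169% paired. At an unadjusted p under 0.05 in the unpaired fit, 0 of the 5 and 1 of the 3 passed, against 2.01% of all genes. The means of the smooth muscle, epithelial and neuronal lists overlapped the controls at all times. Single genes outside the fibroblast list also passed in the paired fit at 4 h. Flt1 (1 of 5 endothelial markers) and Cnn1 (1 of 4 smooth muscle markers) rose, where 2.27% of all genes did. Map2 (1 of 3 neuronal markers) fell, where 3.75% did. Among epithelial and blood cell markers 0 passed there, and unpaired 0 markers of any list passed at 4 h. The part of any of these lists in the lower semaphorin values was not tested, and in bulk RNA fewer cells of a type and less RNA per cell cannot be told apart.

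None of the other 10 semaphorins on the array passed in either fit at 4, 12 or 24 h against control. Of all genes, 0.169% passed unpaired and 6.02% paired at 4 h, 0% and 1.89% at 12 h, and 0% and 0.169% at 24 h. At an unadjusted p under 0.05 in the unpaired fit, 0 of 10 passed at each of these times, against 7.43%, 4.75% and 2.01% of all genes at 4, 12 and 24 h. Among class 3 members, Sema3e, which signals through Plxnd1, stood at -0.29 ± 0.32 at 4 h, against -0.50 ± 0.56 in controls (difference 0.22, SE 0.30, adjusted p 0.982; paired 0.243). Sema3f, a ligand of Nrp2, stood at -0.09 ± 0.08 at 4 h, against -0.06 ± 0.06 in controls (-0.03, SE 0.07, adjusted p 0.991; paired 0.806).

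The membrane-bound semaphorins differed from control at 4 h by -0.08 for Sema4a, 0.01 for Sema4b, 0.01 for Sema4c and -0.04 for Sema4g. Those with thrombospondin repeats or of the sixth class differed by -0.09 for Sema5a, -0.10 for Sema6a, 0.05 for Sema6b and 0.02 for Sema6d. Over the 10 the median difference was -0.01 at 4 h, -0.02 at 12 h and -0.05 at 24 h, beside -0.006, -0.002 and -0.005 for all genes. The values farthest from 0 at the later times were -0.19 for Sema6a at 12 h and 0.16 for Sema6d at 24 h. The probes of Sema6a differed in sign at 4 h, at -0.276 and 0.086.

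Of the receptors and co-receptors, 0 of 10 passed in either fit at any time against control. The shares of all genes at 4, 12 and 24 h were 0.169%, 0% and 0% unpaired, and 6.02%, 1.89% and 0.169% paired. Nrp1, the neuropilin that binds both Sema3a and Sema3c, stood at -0.47 at 4 h, against -0.55 in controls (difference 0.08, SE 0.10, adjusted p 0.982; paired 0.687). Nrp2 stood at -0.44 at 4 h, against -0.59 in controls (0.16, SE 0.10, adjusted p 0.852; paired 0.181). The plexins of the A class that partner Nrp1 differed at 4 h by 0.01 for Plxna2, 0.07 for Plxna3 and -0.13 for Plxna4. The probes of Plxna4 differed in sign, at -0.335 and 0.075.

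Plexins that bind other semaphorin classes differed at 4 h by 0.03 for Plxnb1, -0.24 for Plxnb2 and -0.13 for Plxnc1, and the adhesion proteins L1cam and Chl1 by -0.06 and -0.14. Plxnc1, the receptor of Sema7a, had the largest difference of the list at 24 h, -0.30 (SE 0.09), and its unadjusted p alone was under 0.05 (adjusted p 1; paired 0.286). The list's median was -0.03 at 4 h, -0.02 at 12 h and -0.01 at 24 h. Plxnd1 was not analysed here.

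**Figure D3:**
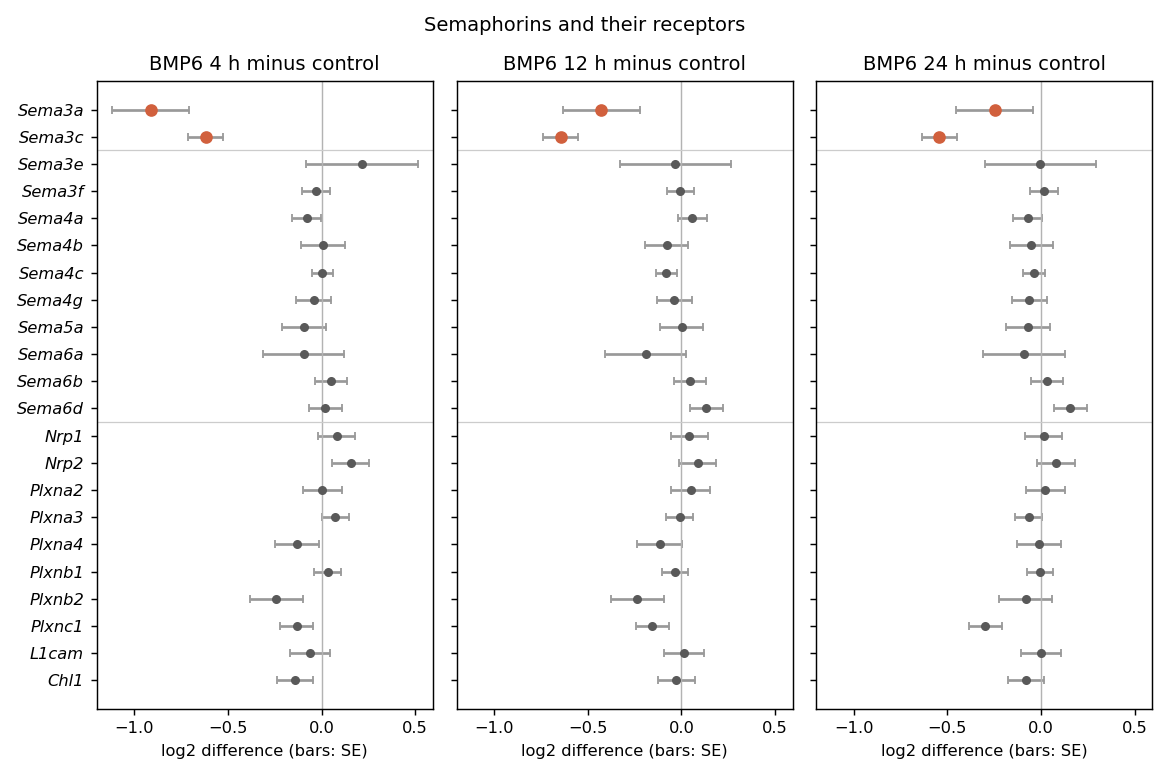
Log2 difference between BMP6 and control (x axis, bars are the SE of the unpaired fit) at 4, 12 and 24 h for the 12 measured semaphorins and 10 receptors or co-receptors (rows). Sema3a and Sema3c, in colour, lie at -0.91 and -0.62 at 4 h, while the other 20 genes lie between -0.24 and 0.22.

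Genes that carry a semaphorin signal inside the cell passed in the paired fit in 3 of 14 cases at 4 h. There 2 rose and 1 fell (background 2.27% and 3.75%), and 0 passed unpaired, with 2 at an unadjusted p under 0.05 (7.43% of all genes). Mical2, of the family of actin-oxidizing enzymes that act below plexins, had ratios of 1.27, 1.46 and 1.26 at 4 h, against 0.79, 0.94 and 0.56 in controls. The difference was 0.57 (SE 0.13, adjusted p 0.105; paired 0.000501). Its 3 probes were all higher at 4 h, by 0.38 to 0.74, and the paired call held without each array in turn. At 12 h it stood at 0.78, against 0.76 in controls (paired adjusted p 0.905).

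Dpysl2, a collapsin response mediator that relays Sema3a to microtubules in neurons, stood at -0.51 ± 0.12 at 4 h, against -0.18 ± 0.15 in controls (difference -0.33, SE 0.10, adjusted p 0.346; paired 0.0396). Its paired adjusted p was 0.0526 to 0.175 without each of control replicates 2 and 3, 4 h replicates 2 and 3, and all 12 h and 24 h arrays. Rras2, a small GTPase of the R-Ras family, stood at 1.60 ± 0.07 at 4 h, against 1.35 ± 0.24 in controls (0.25, SE 0.12, adjusted p 0.699; paired 0.0452). Its paired adjusted p was 0.0665 to 0.164 without each of control replicates 1 and 2, 4 h replicates 1 and 2, and all 12 h and 24 h arrays. At 12 h and at 24 h 0 of the 14 passed in either fit.

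Among 3 measured proteases that process secreted semaphorins, Adamts1, a metalloprotease reported to cut Sema3c protein in human cancer cells, was lower at all times. Its ratios were -0.45, -0.85 and -0.79 at 4 h, against 0.35, -0.15 and 0.13 in controls. They lay below control without overlap, where 6.33% of all genes did so. The difference was -0.81 at 4 h (SE 0.17, adjusted p 0.0927; paired 0.000187), -0.62 at 12 h (0.533; paired 0.00205) and -0.42 at 24 h (1; paired 0.0285). Of all genes, 6.02%, 1.89% and 0.169% passed the paired fit at 4, 12 and 24 h. The gene lists were chosen with earlier results of these data known. The p-values of Adamts1 and of the other listed genes are therefore not independent of that choice. The paired Adamts1 calls at 4 and 12 h held without each array in turn. That at 24 h was lost, at 0.068 to 0.203, without any 1 of the control or 24 h arrays or 12 h replicate 2.

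Furin, which cleaves class 3 semaphorins at basic sites, stood at 0.17 at 4 h, against -0.06 in controls (difference 0.23, SE 0.09, adjusted p 0.481; paired 0.062). Pcsk6, a convertase related to furin, differed by -0.02 (adjusted p 0.999; paired 0.97).

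Other families of guidance cues gave 2 paired calls up and 2 down among 17 measured genes at 4 h, against 2.27% and 3.75% of all genes. Unpaired, 0 passed (0.169% of all genes), with 2 at an unadjusted p under 0.05, where 7.43% of all genes stood. Epha2, an ephrin receptor, stood at 1.25 ± 0.26 at 4 h, against 0.87 ± 0.27 in controls (difference 0.38, SE 0.18, adjusted p 0.696; paired 0.00288), and its paired call held without each array in turn. Efna5, a ligand of that receptor class, differed by 0.21 (paired adjusted p 0.0466), Ephb6, an ephrin receptor without kinase activity, by -0.33 (0.0245) and the axon guidance cue Ntn1 by -0.29 (0.0363). The Ephb6 call was lost without control replicate 2 (0.115), 4 h replicate 1 (0.0569) or 4 h replicate 3 (0.119). That of Efna5 was lost, at 0.0579 to 0.167, without each array but control replicate 3. That of Ntn1 was lost, at 0.0528 to 0.133, without each of control replicates 2 and 3, all 4 h and 12 h arrays and 24 h replicate 2.

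**Figure D4:**
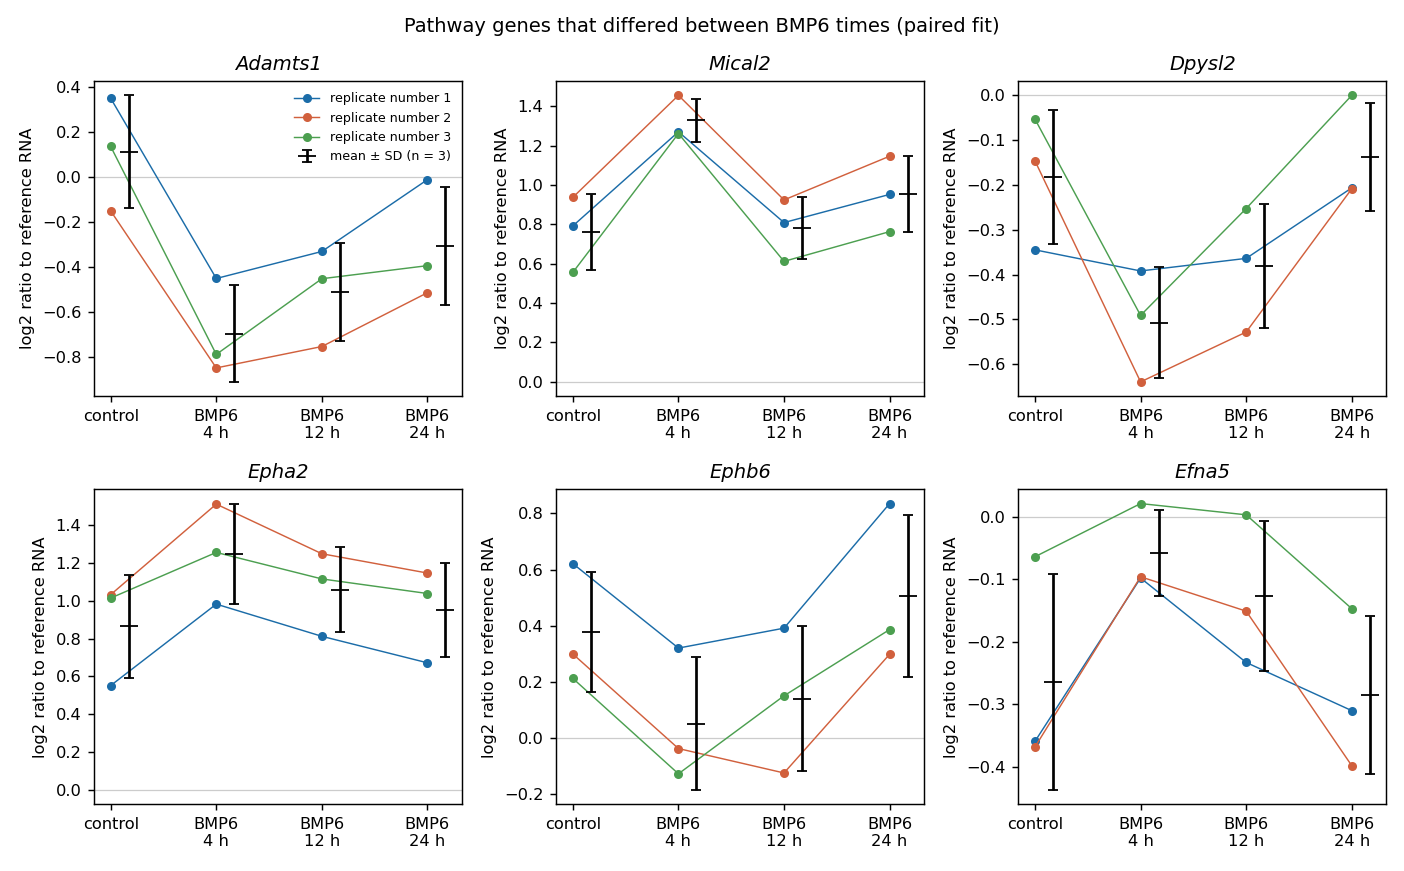
Log2 ratio to the reference RNA (y axis) on each array, by group (x axis: control, then BMP6 for 4, 12 and 24 h), for 6 pathway or guidance genes. Coloured lines join arrays of the same replicate number and black bars are the mean ± SD (n = 3). Mical2 has its highest mean, 1.33, at 4 h and Adamts1 its lowest, -0.70.

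The genes whose pattern was most like that of Sema3a over the 12 arrays, after the mean of each replicate number was subtracted, were Sesn1, Pmp22, Adamts5, Cavin2 and Gtf2i, with Pearson r from 0.976 to 0.98. Without the subtraction these r ran from 0.895 to 0.981. Sesn1, a stress-induced inhibitor of growth signalling, differed from control by -0.60 at 4 h, -0.35 at 12 h and -0.16 at 24 h. Adamts5, a proteoglycan-cutting metalloprotease, differed by -1.35, -0.76 and -0.50, and Cavin2, a caveolar coat protein, by -1.28, -0.59 and -0.39. Pmp22, a membrane protein of myelin, differed by -0.69 at 4 h, and Gtf2i, a transcription factor, by -0.36. The opposite pattern was closest in Ugdh, Sde2 and Akap2 (r from -0.988 to -0.97; -0.941 to -0.494 without the subtraction).

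Sema3c had another set. The genes most like it were Gas1, Fdft1, Tns2, Mmp2 and Sulf1, with r from 0.908 to 0.945, or 0.351 to 0.831 without the subtraction. Gas1, a growth arrest protein, differed from control by -0.57 at 4 h, -0.61 at 12 h and -0.56 at 24 h. Sulf1, which trims heparan sulfate, differed by -0.35, -0.34 and -0.35, and Fdft1, the squalene synthase, by -0.20, -0.30 and -0.20. Tns2, a focal adhesion protein, differed by -0.33 at 4 h and Mmp2, a gelatinase, by -0.15. The opposite pattern was closest in Ttc39b, Sh3kbp1 and Epb41l1 (r from -0.963 to -0.953; -0.889 to -0.238 without the subtraction).

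Sema3a and Sema3c themselves had an r of 0.668 over the 12 arrays after the subtraction and 0.457 without it. Among all genes Sema3c ranked 1051 in likeness to Sema3a, and Sema3a ranked 449 in likeness to Sema3c. All these r describe 12 arrays that fall into the same 4 groups, and no p is attached to them. These arrays include the control and 4 h arrays on which both semaphorins were chosen. The differences given for the most alike genes follow in shape from the ranking by r and are no separate observation.

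Sema3a and Sema3c lie on chromosome 5 with 3 named genes of this array between them in the order of the RefSeq table, Sema3e, Speer4cos and Hgf. At 4 h these differed from control by 0.22, -0.12 and -0.19. Beyond Sema3a the nearest measured genes were Elapor2 at -0.01, Dmtf1 at 0.01 and Abcb1b at 0.27, and beyond Sema3c they were Gnai1 at -0.01, Phtf2 at 0.08 and Ptpn12 at 0.01. At 4 h the lower values of both semaphorins were therefore not shared in size by any of these 9 neighbours. At 24 h Hgf stood at -0.14, beside -0.25 for Sema3a and -0.54 for Sema3c. RefSeq lists 19 protein-coding genes between Sema3a and Sema3c, so most of them are not among these neighbours.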

How the data were processed

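RNA of MECs was hybridised against a universal mouse reference on 12 two-colour Agilent arrays. Per the labels, the authors scanned them with GenePix and normalized them by a modified local quantiles method. The deposited values, 20280 per array, are taken as log2 ratios. The members and gene lists were chosen with earlier results of these data known. Probe numbers were placed on value rows by the inferred order (11083 of 11083 on a row with a value), symbols updated through RefSeq gene identifiers (10548 of 10576 probes), and probes of a gene averaged. Probes with several symbols (507) were left out of the genes.

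limma 3.58.1 in R 4.3.3 (lmFit, eBayes, two-sided) was fitted over all 12 arrays without a block, with Benjamini-Hochberg adjustment over 8267 genes and a threshold of 0.05. It was also run on simulated data with noise drawn independently for each gene, and no result here rests on that run. The submitters name an unpaired t-test. Same-numbered arrays of different groups deviated together (18 correlations, 0.446 to 0.756; others -0.561 to 0.037), so the numbers in the titles pair the arrays, and the blocked fit is given where it changes a call. No label says what a number marks. Alternatives were other normalizations, each array left out, only the groups compared, the methods' t-test and single probes. Besides both semaphorins, every measured semaphorin and receptor, every called gene of the other lists and each list's largest difference are named, with the 5 genes most and 3 least like each semaphorin. Arrays give no depth, and their number limits precision.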

Additional observations from a re-analysis of the deposited data

Results flagged for a closer look

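A difference between BMP6 times passed the paired test for 6 of the 54 other measured genes of the pathway and guidance lists (1 at 12 h against 4 h, where 1.29% of all genes passed, and 6 at 24 h against 4 h, where 4.05% did), and in the unpaired fit for none of them (adjusted p 0.313 to 0.899). Mical2 was lower at 12 h than at 4 h by a log2 difference of -0.547 (paired adjusted p 0.00421) and lower at 24 h than at 4 h at -0.374 (0.0062), each in 3 of 3 pairs, and both calls held without each array in turn. Adamts1 was higher at 24 h than at 4 h by 0.389 (0.00785) and Ephb6 by 0.455 (0.00785), each in 3 of 3 pairs, and these also held without each array. Dpysl2 was higher at 24 h than at 4 h by 0.368 (0.0298), and missed the threshold, at 0.051 to 0.141, without 4 h replicate 2 or 3, 12 h replicate 3 or any 24 h array. Epha2 was lower at 24 h than at 4 h at -0.297 (0.0129), and missed it, at 0.0585 to 0.0738, without 4 h replicate 2 or any 24 h array. Efna5 was lower at 24 h than at 4 h at -0.227 (0.0395), and missed it, at 0.0531 to 0.191, without each array but control replicates 1 and 3. Dpysl2, Epha2 and Efna5 moved in 3 of 3 pairs. Groups of 3 arrays are too small for a test of outlying arrays.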

How the results depend on the processing

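The differences of Sema3a and Sema3c from control kept their sign under each alternative and moved by less than the SD within the 2 groups compared (root of their mean variance). With 1 array left out Sema3a ranged from -1.168 to -0.726 at 4 h, -0.574 to -0.278 at 12 h and -0.344 to -0.176 at 24 h, and Sema3c from -0.677 to -0.527, -0.705 to -0.554 and -0.604 to -0.454. At 24 h against 12 h both stayed positive and past no threshold, Sema3a at 0.031 to 0.327 and Sema3c at 0.05 to 0.161. Neither had a second probe to test alone. Of the other semaphorin pathway genes, 0 of 37 were called unpaired at each comparison with control. With the replicate block 4 were called at 4 h, 1 at 12 h and 1 at 24 h, where 6.02%, 1.89% and 0.169% of all genes were. These counts ran from 2 to 5, 1 to 2 and 0 to 1 when the paired fit left out 1 array at a time. That alternative was chosen after seeing the data.

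Over all genes, 14 were called at 4 h, and 0 at 12 h, at 24 h and at 24 h against 12 h. With the replicate block these counts were 498, 156, 14 and 9. Quantile normalization gave 35 at 4 h, 1 at 12 h and 1 at 24 h against 12 h. The methods' t-test called 474, 297, 175 and 256 unadjusted and 0, 1, 0 and 0 after adjustment, and the 2 groups alone called 0 at 4 h. With 1 array left out the counts ran from 3 to 51 at 4 h (the lowest without control replicate 1 or 2 or the 4 h array numbered 3, then 4 when the 4 h array numbered 2 was omitted, 9 with 24 h replicate 2 omitted, and the highest without the 4 h array numbered 1). They ran from 0 to 1 at 12 h, with 1 when control replicate 3, 12 h replicate 3 or 24 h replicate 2 was omitted. The cause of these shifts was not tested.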
